A study of Xenopus tropicalis with 31 samples.

Results

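Chromatin is opened at promoters and at distal enhancers when transcription factors displace nucleosomes, and ATAC-Seq maps these places with a transposase that inserts sequencing adapters into exposed DNA. The fragments counted over a window therefore measure how accessible it is in the cells sampled. A Xenopus tropicalis tadpole regrows its tail, including spinal cord, notochord, muscle and epidermis, after amputation, and windows that lose accessibility along the way are places that were more open in the tail before injury. Of the 124349 windows of 400 bp counted in the series, 329 (0.265%) were lower at 72 hours post amputation (72hpa) than in uninjured tails in both tissues measured. They were selected on the values of the 72hpa and uninjured libraries themselves. Each count was scaled to counts-per-million (CPM) by its library's total, log2(CPM + 0.5) was averaged over libraries, and a window was taken when the 72hpa mean was at least 0.5 below the uninjured mean in pax6 libraries and also in all-tissue libraries. The comparison of 72hpa with uninjured tails is accordingly a description, and tests were kept for the timepoints between them.

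Every group, uninjured tails included, came from tadpoles with the transgene pax6:GFP joined to cryga:RFP and actc1:RFP. In these animals GFP is driven by the pax6 promoter, which is active in neural progenitors of the spinal cord. Tails were cut at stage 41, and several were pooled for each library. The pax6 libraries were made from sorted GFP+ cells, and the all-tissue libraries from GFP+ and GFP- cells sorted into a shared tube. The deposited counts name the all-tissue libraries WT, although GFP+ cells went into them. The later groups were the posterior end of the remaining tail, collected 0, 6, 24 and 72 hours after the cut. At 0hpa nothing had regrown, so this end was stump tissue. The uninjured group was the tail tip removed at amputation. Used here were 2 pax6 libraries from uninjured tails, 2 at 0hpa and 3 each at 6hpa, 24hpa and 72hpa. The all-tissue libraries numbered 4 from uninjured tails, 2 at 0hpa, 3 each at 6hpa and 24hpa, and 4 at 72hpa. In the uninjured and 72hpa all-tissue groups 1 library is numbered 1.1 in the labels, which do not say more of it. The tests counted it with replicate 1, so these groups held 3 samples there. The rule that chose the windows counted it as a separate library. Tadpoles at 72hpa were also 72 hours older than at the cut, and their tip was newly grown, so regeneration, age and tail region cannot be told apart. The 0hpa tissue lay in front of the cut and the uninjured tip behind it, so tail region also differed between these groups. In these bulk samples fewer cells of a type and less accessibility per cell cannot be told apart either. The labels do not say whether replicates came from separate clutches, so p-values cover the spread between these samples.

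The totals of the 29 libraries ran from 3052810 to 12130125 fragments in windows, and 2 further pax6 libraries, an uninjured and a 0hpa one, were left out because they held 143 and 11. The labelled tissues were compared at windows up to 500 bp from the transcription start site (TSS) of marker genes, over 0hpa, 6hpa and 24hpa. The median log2 difference of pax6 against all-tissue libraries was -0.03 for 11 windows of neural progenitor genes, 0.07 for 9 windows of neuron genes, 0.25 for 5 windows of skeletal muscle genes and -0.20 for 15 windows of epidermis genes, beside -0.10 for all 10774 such windows. Among the marker windows 1 passed the test, at the muscle actin gene actc1, and it was higher in pax6. Of all 10774 such windows, 2 were called higher in pax6 and 15 lower. The actc1 promoter also drives RFP in these animals, and whether the transgene bears on the actc1 call was not tested.

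The rule rested heavily on 3 libraries. All-tissue uninjured replicate 1 had 0.386% of its fragments in the 329 windows and pax6 uninjured replicate 2 had 0.429%, while the other 27 libraries had 0.158% to 0.325%. These were also the shallower library of their groups, with 3052810 and 4003833 fragments. The third was pax6 72hpa replicate 3, in which 174 windows of the series held no fragment, against 4 to 38 in the other libraries. When pax6 uninjured replicate 2 was left out, 208 windows met the rule, and 135 of them were among the 329. Leaving out pax6 uninjured replicate 1 gave 774 windows, with 313 shared. Without all-tissue uninjured replicate 1 the rule gave 297 windows and 185 were shared, and without pax6 72hpa replicate 3 it gave 317 and 205. With the 3 libraries left out together, 187 windows met the rule and 50 of these were among the 329. With pax6 uninjured replicate 2 left out, alone or with the others, replicate 1 was the only uninjured pax6 library in the rule. The selection of the 50 windows thus rested on 1 uninjured library in pax6. Only 19 windows were lost under each of the 13 settings that left out 1 library.

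**Figure D1:**
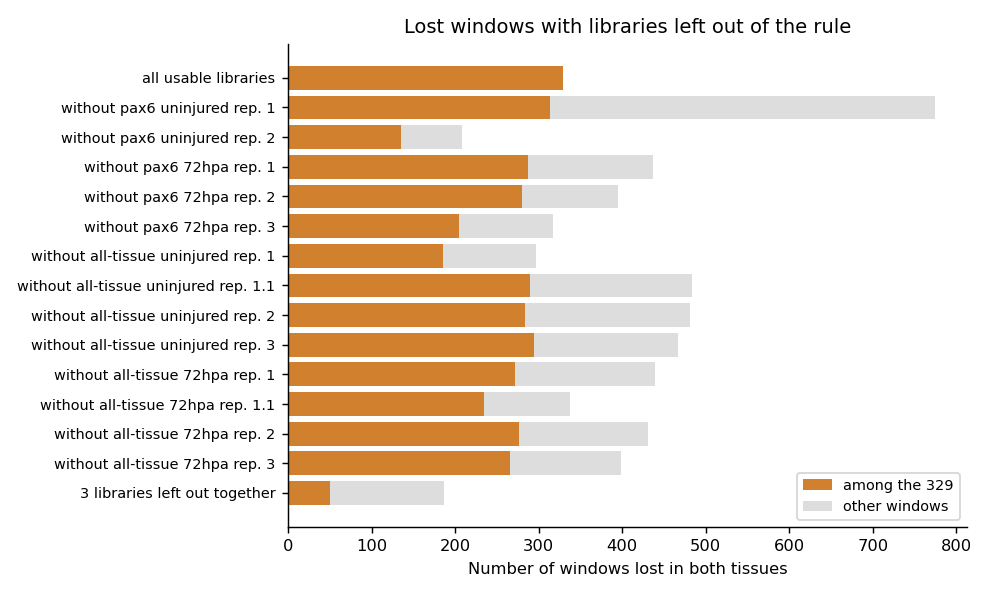
Number of windows that met the rule with all usable libraries, with each uninjured or 72hpa library left out in turn, and with all-tissue uninjured replicate 1, pax6 uninjured replicate 2 and pax6 72hpa replicate 3 left out together. The orange part of each bar counts windows shared with the 329, and the bars run from 187 windows with those 3 libraries left out to 774 without pax6 uninjured replicate 1.

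The 329 windows lay at the margin of a broad cloud. The rule taken in 1 tissue alone gave 8714 windows in pax6 (7.01% of all), of which the 329 are 3.78%, and 2229 in all-tissue (1.79%), of which they are 14.8%. The opposite rule, a gain of at least 0.5 in both tissues, gave 1898 windows. The median difference of 72hpa minus uninjured was -0.68 in pax6, with -1.63 as the most negative value, and -0.61 in all-tissue, with -1.19 as the most negative. All 72hpa libraries lay below all uninjured libraries for 140 of the 329 windows in pax6 (9.48% of all windows did), for 128 in all-tissue (2.14% of all windows) and for 59 in both tissues (0.362% of all windows). In edgeR's quasi-likelihood test across 124342 windows, 2 of them passed an adjusted p under 0.05 as lower at 72hpa in all-tissue (0.0249% of all windows) and 0 did in pax6 (0% of all windows). Without adjustment, p was under 0.05 as lower for 193 in all-tissue (3.17% of all windows) and 151 in pax6 (4.27% of all windows). DESeq2 called 2 in all-tissue (0.0249% of all windows) and 0 in pax6 (0.00322%), and edgeR's likelihood ratio test called 10 in all-tissue (0.074%) and 0 in pax6 (0.0161%). Since the same libraries chose the windows, nothing is read from these counts.

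**Figure D2:**
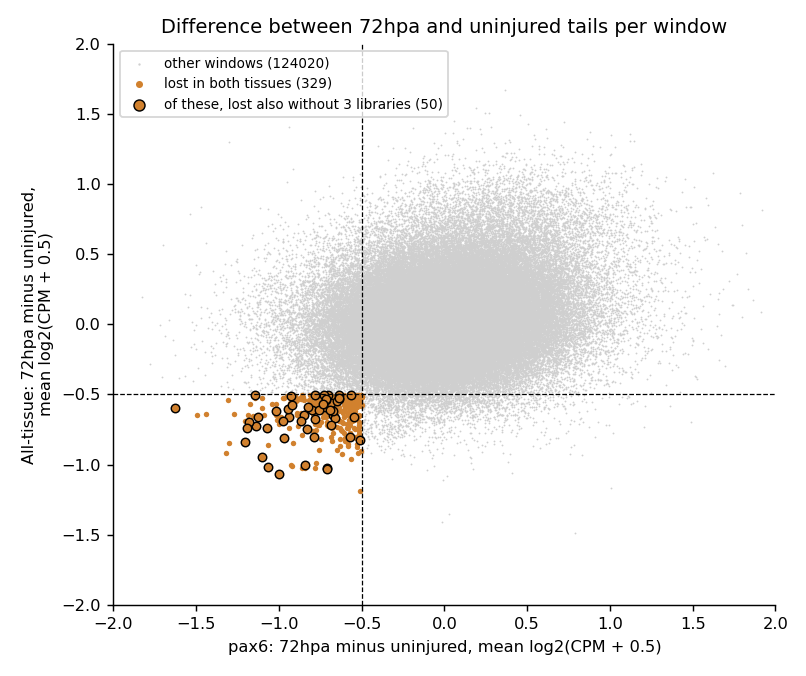
Mean log2(CPM + 0.5) at 72hpa minus uninjured tails for every window, with pax6 on the horizontal axis and all-tissue on the vertical axis. Dashed lines mark the threshold of -0.5 in each tissue, and the 329 windows in the lower left corner lie along the edge of the cloud, with the 50 that were lost also without 3 libraries outlined.

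Many windows sat close to the threshold. Just inside were the window near tuft1, with differences of -0.70 in pax6 and -0.50 in all-tissue, and the window near march11, a membrane ubiquitin ligase, with -0.50 and -0.52. Just outside were the window near cyp7b1, an oxysterol hydroxylase, with -0.72 in pax6 and -0.4999 in all-tissue, and the window near Xetrov90013302m.g, with -0.69 and -0.4998. At a threshold of -0.6 there were 117 windows, and at -0.4 there were 1066.

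The lost windows were mostly weakly open. Their median level over all libraries was 3.64 CPM, against 4.84 CPM for all windows, and a median window held 23.3 fragments per library, against 31.4. Of the 329, 221 (67.2%) averaged under 5 CPM, as did 52.4% of all windows. The share of windows that met the rule was 0.914% below 2 CPM (5 of 547), 0.649% from 2 to 3 CPM (83 of 12783), 0.257% from 3 to 5 CPM (133 of 51797), 0.176% from 5 to 10 CPM (70 of 39838) and 0.196% at 10 CPM or more (38 of 19384). The lower the level, the larger the share, apart from the highest class. The score that the authors' peak caller gave the summit, a -log10 q-value, had a median of 4.57 in the lost windows and 5.24 in all windows. Replicates also differed more in them, with a median SD within groups at 0hpa, 6hpa and 24hpa of 0.34 on the log2 scale, against 0.28 in all windows. A fixed log2 threshold is met more easily by windows with few fragments and uneven replicates. These traits may therefore follow in part from the rule.

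Few of the lost windows lay at promoters. A TSS lay inside 2 of them (0.608%), against 4.91% of all windows, and within 500 bp of 10 (3.04%), against 8.66%. The nearest TSS lay over 500 and up to 10000 bp away for 101 windows (30.7%, all windows 27.4%), over 10000 and up to 100000 bp away for 172 (52.3%, all windows 48.5%) and farther for 18 (5.47%, all windows 9.79%). No gene was annotated for 28 (8.51%, all windows 5.59%). The median distance was 15221 bp, beside 16530.5 bp for all annotated windows. Unplaced scaffolds held 83 windows (25.2%, all windows 24.3%). The lost windows were not compared with other windows of the same level. None of the 50 windows that were lost also without 3 libraries lay within 500 bp of a TSS.

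**Figure D3:**
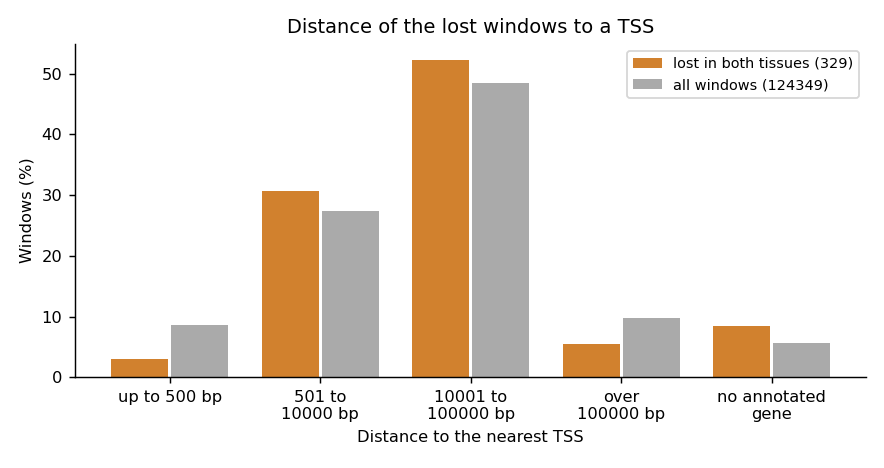
Share of windows (%) in each class of distance to the nearest TSS, for the 329 lost windows on the left and all 124349 windows on the right of each pair. The lost windows had 3.04% within 500 bp, against 8.66% of all windows, and 8.51% with no annotated gene, against 5.59%.

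The nearest genes were spread widely. The 301 annotated windows had 286 different nearest genes, of which 272 had 1 lost window, 14 had more and hspa12b, an atypical member of the HSP70 chaperone family, had 3. A symbol was given for 148 windows, a LOC identifier for 55 and a placeholder gene model for 98. A nearest gene is the closest annotated start only, and whether a window acts on it was not measured.

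At 0hpa, 6hpa and 24hpa the lost windows had levels between their uninjured and 72hpa levels in most cases. In pax6 libraries the mean lay between for 222, 226 and 206 of the 329 windows at 0hpa, 6hpa and 24hpa, above the uninjured mean for 35, 39 and 35, and below the 72hpa mean for 72, 64 and 88. In all-tissue libraries it lay between for 232, 270 and 239, above for 77, 32 and 33, and below for 20, 27 and 57. A window chosen for a high uninjured and a low 72hpa mean tends to lie between at other times in any case, so these counts describe the windows and test nothing. The median difference from the uninjured mean was -0.42, -0.39 and -0.47 at 0hpa, 6hpa and 24hpa in pax6 and -0.17, -0.31 and -0.37 in all-tissue.

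The level of the whole set was compared in each library with the median of all windows. In pax6 it lay at -0.23 and 0.31 in uninjured tails, -0.29 and -0.34 at 0hpa, -0.29, -0.27 and -0.25 at 6hpa, -0.37, -0.34 and -0.37 at 24hpa, and -0.48, -0.43 and -0.88 at 72hpa. In all-tissue it lay at 0.33, -0.10, -0.06 and -0.11 in uninjured tails, -0.17 and -0.33 at 0hpa, -0.30, -0.26 and -0.40 at 6hpa, -0.33, -0.40 and -0.40 at 24hpa, and -0.61, -0.71, -0.54 and -0.64 at 72hpa. The 16 libraries of the middle timepoints thus fell in a narrow band from -0.17 to -0.40. The wide spread was in both uninjured groups and in pax6 at 72hpa, which chose the windows. The all-tissue 72hpa libraries, which also chose them, lay closer together. Pax6 uninjured replicate 1 (-0.23) lay 0.54 below replicate 2 and just above the pax6 libraries of the middle timepoints (-0.25 to -0.37). In the 50 windows lost also without 3 libraries, the group means in pax6 were -0.11 in uninjured tails, -0.44, -0.44 and -0.57 at 0hpa, 6hpa and 24hpa, and -0.89 at 72hpa. In all-tissue they were -0.13, -0.36, -0.48, -0.53 and -0.91 in the same order.

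**Figure D4:**
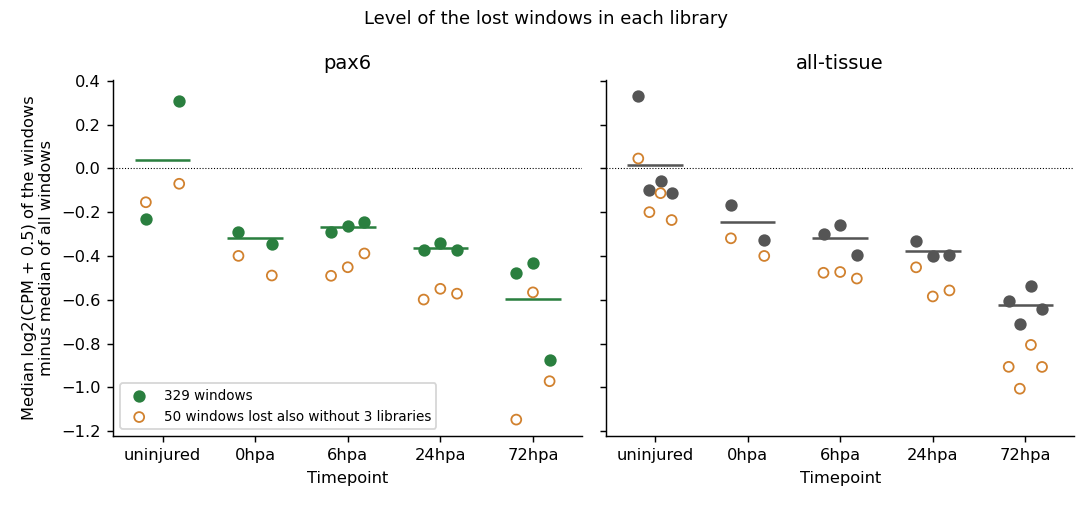
Median log2(CPM + 0.5) of the lost windows minus the median of all windows in every library, by timepoint, for pax6 on the left and all-tissue on the right. Filled points are the 329 windows with a line at the group mean, open points the 50 windows lost also without 3 libraries, and the libraries at 0hpa, 6hpa and 24hpa lie between -0.17 and -0.40 for the 329 windows.

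Whether any window changed between 0hpa, 6hpa and 24hpa was tested in edgeR's quasi-likelihood model of all 10 groups, in which the means compared used no uninjured or 72hpa library. All 329 windows passed the filter on low counts. Of them, 0 were called at an adjusted p under 0.05 in each of the 9 comparisons among these times. Over all windows 4 were called for 24hpa against 0hpa in all-tissue (0.00322%), and 0 (0%) in the other 8 comparisons. DESeq2 also called 0 of the 329 in all 9, and the likelihood ratio test called 1 (0.0434% of all windows as lower), the window near ubap1 (Chr01:194576926-194577325, 6926 bp from its TSS), named here after its values were seen. It was lower at 24hpa than at 0hpa in all-tissue, with a log2 fold change of -1.06 and an adjusted p of 0.0867 in the quasi-likelihood test.

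Without adjustment, the clearest lean was in the comparison of 24hpa with 0hpa in all-tissue. There 51 of the 329 windows (15.5%) had an unadjusted p under 0.05 as lower at 24hpa, beside 3.94% of all windows, and 3 (0.912%) as higher, beside 4.8% of all windows. Their median log2 fold change was -0.22, against 0.00 for all windows, and 220 were negative. Without all-tissue 0hpa replicate 1 the count was 12 (3.65%, all windows 2.47%) and the median -0.09. It was 24 without all-tissue 24hpa replicate 2 (all windows 3.07%), 33 without all-tissue 24hpa replicate 3 (all windows 3.6%) and 68 without all-tissue 0hpa replicate 3 (all windows 4.5%), where 9 windows passed the adjusted threshold as lower (0.232% of all windows). In pax6 the same comparison gave a median of -0.06, with 9 windows lower (2.74%, all windows 1.72%) and 3 higher (0.912%, all windows 1.75%). In the mean of both tissues the median was -0.14, with 30 lower (9.12%, all windows 2.72%) and 2 higher (0.608%, all windows 2.8%). The 50 windows lost also without 3 libraries had medians of -0.10 in pax6 and -0.15 in all-tissue. Whether the tissues differ in this change was not tested. All-tissue 0hpa replicate 1 and 2 libraries that entered the rule were the 3 highest in 58 of the 329 windows (17.6%, all windows 0.729%). The all-tissue comparisons with 0hpa may therefore not be free of the selection, although the rule used no 0hpa library.

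The other time comparisons are given with the same shares. For 24hpa against 6hpa the median was -0.10 in pax6, with 14 windows lower (4.26%, all windows 3.56%) and 4 higher (1.22%, all windows 4.15%). In all-tissue it was -0.09, with 12 lower (3.65%, all windows 1.99%) and 5 higher (1.52%, all windows 2.38%), and in the mean of both tissues -0.09, with 15 lower (4.56%, all windows 2.31%) and 4 higher (1.22%, all windows 2.56%). The shares of lower windows were thus close to the background in pax6 and above it in all-tissue. With 1 all-tissue library left out, 6 to 11 were lower in all-tissue. Without all-tissue 6hpa replicate 2 there were 6 lower (1.82%) and 8 higher (2.43%). The shares of all windows under these settings are not given here, so no lean is read from this comparison. For 6hpa against 0hpa the median was 0.04 in pax6, with 3 lower (0.912%, all windows 2.07%) and 9 higher (2.74%, all windows 2.04%). In all-tissue it was -0.15, with 25 lower (7.6%, all windows 2.62%) and 1 higher (0.304%, all windows 2.83%), and in the mean of both tissues -0.06, with 12 lower (3.65%, all windows 2.45%) and 5 higher (1.52%, all windows 2.59%). The all-tissue median of 6hpa against 0hpa moved to -0.01 without all-tissue 0hpa replicate 1.

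The tissues were compared in the same model over 0hpa, 6hpa and 24hpa. Of the 329 windows 1 was called higher in pax6 (0.106% of all windows were) and 1 lower (0.117% of all windows). The median log2 difference was -0.05, beside 0.00 for all windows, and at an unadjusted p under 0.05, 14 windows were higher (4.26%, all windows 3.92%) and 25 lower (7.6%, all windows 4.57%).

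The window higher in pax6 was nearest to slc16a1, a transporter of lactate and other monocarboxylates, although its TSS was 257343 bp away (Chr02:74549438-74549837, genome build xtropicalis9.0 as for all positions here). In pax6 it had 5.54 and 4.86 CPM at 0hpa, 3.86, 4.50 and 5.61 CPM at 6hpa and 4.82, 3.88 and 5.25 CPM at 24hpa. In all-tissue it had 3.11 and 1.53 CPM at 0hpa, 2.01, 2.14 and 2.97 CPM at 6hpa and 2.27, 0.831 and 3.04 CPM at 24hpa. Every pax6 library lay above every all-tissue library at these times. The log2 difference was 1.09 ± 0.22 (SE, adjusted p = 0.0103). At 72hpa it had 4.28, 2.41 and 2.34 CPM in pax6, against 3.82 and 5.99 CPM in uninjured tails, and 2.01, 1.73, 0.421 and 1.97 CPM in all-tissue, against 3.93, 1.38, 3.40 and 2.13 CPM. These groups overlapped in both tissues.

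The window lower in pax6 lay 1641 bp from the TSS of the placeholder gene Xetrov90000239m.g (Chr01:7106017-7106416). It had 9.45 and 6.76 CPM at 0hpa, 6.21, 9.72 and 8.30 CPM at 6hpa and 7.08, 7.54 and 7.63 CPM at 24hpa in pax6. All-tissue libraries had 9.51 and 14.1 CPM at 0hpa, 14.1, 14.3 and 9.95 CPM at 6hpa and 10.2, 11.3 and 10.1 CPM at 24hpa. Except for 1 pax6 library at 6hpa, all pax6 values were below all all-tissue values, and the log2 difference was -0.64 ± 0.13 (SE, adjusted p = 0.00982). Its course differed in the means. In pax6 the 0hpa mean, 8.10 ± 1.90 CPM (SD, n = 2), was close to the 72hpa mean of 7.59 ± 0.94 CPM (n = 3), while all-tissue libraries had 10.2, 11.3 and 10.1 CPM at 24hpa and 7.35, 8.31, 4.49 and 7.22 CPM at 72hpa. This timing was not tested. Neither window passed when the deeper 0hpa library of either tissue was left out. Without all-tissue 0hpa replicate 3 the adjusted p was 0.153 for the slc16a1 window and 0.196 for the Xetrov90000239m.g window, and without pax6 0hpa replicate 3 it was 0.0717 and 0.231. In those settings other windows passed, that near pcdh18 in the first and that near cers6 in the second, both named after their values were seen. Over the settings that gave an adjusted p it ran from 0.00039 to 0.153 for the slc16a1 window and from 0.00219 to 0.231 for the Xetrov90000239m.g window.

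The windows with the largest mean loss next to a named gene are given here by the role of that gene, beginning with receptors and adhesion proteins. The window near grik4-like, a subunit of a kainate glutamate receptor, lay 90206 bp from the TSS (Chr07:87620118-87620517). It had 1.88, 1.42 and 0.390 CPM at 72hpa in pax6, against 3.23 and 3.00 CPM in uninjured tails. All-tissue values were 1.74, 2.25, 1.82 and 1.97 CPM at 72hpa, against 5.24, 2.25, 3.40 and 3.46 CPM in uninjured tails. The groups did not overlap in pax6, and met at 2.25 CPM in all-tissue. Of the others, that near cdh12, a neuronal cadherin, was 191126 bp from the TSS, with differences of -1.14 in pax6 and -0.73 in all-tissue. That near ptpru, a receptor tyrosine phosphatase, was 55281 bp from the TSS, with -1.32 and -0.92. That near reep2, which shapes the endoplasmic reticulum of neurons, was 20924 bp away, with -1.27 and -0.64. In all-tissue the window near ptpru had 4.91, 2.42, 2.80 and 3.06 CPM in uninjured tails and 1.74, 0.346, 3.23 and 1.575 CPM at 72hpa. These groups overlapped, and the value of 0.346 CPM was 2 fragments. At 0hpa it had 1.83 and 1.97 CPM in all-tissue, at 6hpa 2.18, 2.39 and 2.38 CPM, and at 24hpa 1.36, 1.33 and 1.74 CPM. In pax6 it had 2.40, 1.56 and 0.779 CPM at 72hpa and 2.41, 3.31 and 2.23 CPM at 24hpa, which overlap.

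The remaining large losses lay near enzymes and other genes. The window near tex261 (Chr01:8123999-8124398, 35205 bp) had 2.06, 3.40 and 2.92 CPM at 72hpa in pax6, against 4.31 and 8.24 CPM in uninjured tails. In all-tissue it had 2.41, 1.73, 1.26 and 1.31 CPM at 72hpa, against 5.90, 4.14, 2.40 and 4.13 CPM. In all-tissue 1 uninjured library lay just below the highest 72hpa library. Its course was uneven, with 2.35, 7.02 and 3.53 CPM at 6hpa in pax6 and 3.18, 4.16 and 3.77 CPM at 24hpa in all-tissue. The window near rdh8, a retinol dehydrogenase of photoreceptors, lay 5849 bp from the TSS (Chr03:126414912-126415311). At 24hpa it had 1.51, 1.26 and 1.59 CPM in pax6, below the 2.93 and 2.31 CPM at 0hpa, and at 72hpa it had 1.71, 1.56 and 0.779 CPM. The log2 fold change of 24hpa against 0hpa was -0.79 in pax6 and -0.37 in all-tissue, and neither passed. The window near eif4b, a translation initiation factor, had no fragment in pax6 72hpa replicate 3 and 3.25 and 2.83 CPM in the other pax6 72hpa libraries, against 4.31 and 3.25 CPM in uninjured tails. Its 24hpa values in pax6, 5.58, 6.28 and 4.61 CPM, were above the uninjured ones.

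The next windows were chosen after their values were seen, from the 19 windows that no single library decided. The window near LOC100489247 (Chr03:121925198-121925597, 20865 bp) had 17.5, 12.2 and 11.7 CPM at 72hpa in pax6, against 21.9 and 21.98 CPM in uninjured tails. The all-tissue libraries had 13.2, 12.3, 12.9 and 11.7 CPM at 72hpa, against 21.9, 18.3, 20.0 and 17.8 CPM. The groups did not overlap in either tissue. At 0hpa it was already at 15.96 and 16.2 CPM in pax6 and 15.9 and 12.5 CPM in all-tissue, and it stayed between 12.2 and 18.9 CPM through 24hpa. The window near Xetrov90000413m.g (Chr01:15036092-15036491, 16998 bp) had 3.42, 4.82 and 1.56 CPM at 72hpa in pax6, below the 5.88, 8.11 and 6.36 CPM at 24hpa. In all-tissue the times overlapped, as all-tissue 24hpa replicate 1, at 4.54 CPM, lay within the all-tissue 72hpa range of 4.28 to 4.86 CPM. The difference of 72hpa minus uninjured for this window was -1.07 in pax6 and -0.74 in all-tissue.

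**Figure D5:**
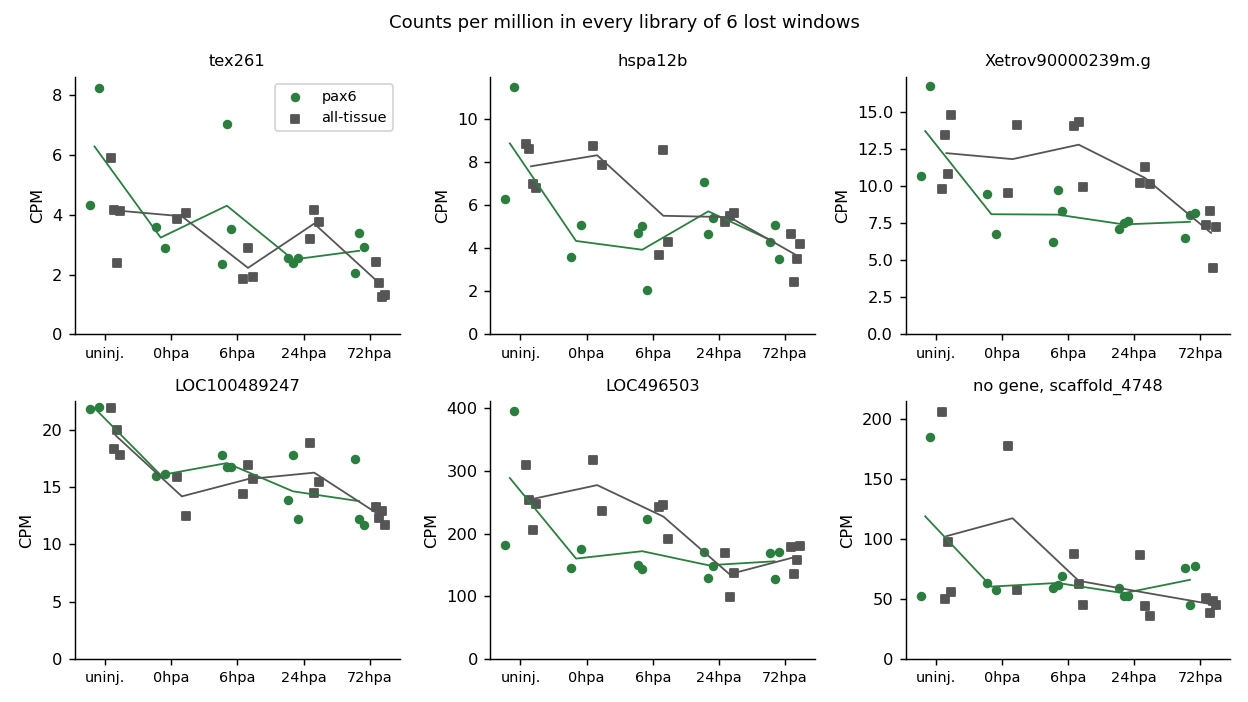
CPM in every library for 6 lost windows, named by their nearest gene, with pax6 as circles, all-tissue as squares and lines through the group means. The window near LOC100489247 was at 11.7 to 17.5 CPM at 72hpa and 17.8 to 21.98 CPM in uninjured tails, while the window on scaffold_4748 had 206 and 186 CPM in 2 uninjured libraries and 50.3 to 97.6 CPM in the other 4.

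The most open lost windows, named after their values were seen, averaged 194.5 CPM (nearest gene LOC496503, which the RefSeq table names stard15, Chr03:19403543-19403942, 36020 bp) and 189.7 CPM (nearest gene Xetrov90030649m.g, scaffold_837:77255-77654, 66881 bp). The stard15 window had 168, 128 and 171 CPM at 72hpa in pax6, against 181 and 396 CPM in uninjured tails, and 179, 135, 157 and 180.5 CPM at 72hpa in all-tissue, against 310.2, 254, 206 and 248 CPM. The groups did not overlap, but in pax6 only uninjured replicate 2 stood well above the 72hpa libraries. In all-tissue the window had 318 and 237 CPM at 0hpa, 192 to 246 CPM at 6hpa and 169, 99.4 and 137 CPM at 24hpa. The log2 fold change of 24hpa against 0hpa in all-tissue was -1.08 with an adjusted p of 0.224.

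A set of windows, picked out after the values were seen, shared a single profile over libraries. In 58 of the 329 (17.6%) the 3 highest libraries were all-tissue uninjured replicate 1, all-tissue 0hpa replicate 1 and pax6 uninjured replicate 2, beside 907 of all windows (0.729%). Among lost windows of 10 CPM or more it was 21 of 38 (55.3%), beside 2.64% of all windows at that level. Part of this follows from the rule, which 2 of these libraries entered, but all-tissue 0hpa replicate 1 did not enter it. The window on scaffold_4748 (3709 to 4108, no annotated gene) had 206 CPM in all-tissue uninjured replicate 1, 178 CPM in all-tissue 0hpa replicate 1 and 186 CPM in pax6 uninjured replicate 2. Its other values ran from 35.6 to 97.6 CPM. The window near slc25a10, the mitochondrial dicarboxylate carrier (Chr10:19699185-19699584, 33124 bp), had 41.0, 33.9 and 44.5 CPM in the same 3 libraries and 5.32 to 15.4 CPM in all others. Near LOC101732136 (Chr07:192390-192789, 28950 bp) the values were 28.2, 23.8 and 33.5 CPM, against 4.78 to 15.8 CPM. The pair of windows near Xetrov90013290m.g and the pair near LOC101731760 had the same 3 libraries on top. What the high libraries share was not tested.

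Another profile belonged to small scaffolds and was also picked out after the values were seen. The window on scaffold_9098 (1122 to 1521, no annotated gene) had 34.6, 9.64 and 8.77 CPM at 72hpa in pax6, against 27.8 and 20.5 CPM in uninjured tails, and 23.7, 11.9, 0.842 and 11.8 CPM at 72hpa in all-tissue, against 13.1 to 25.9 CPM in 4 uninjured libraries. It varied as widely within the other groups, with 22.7 and 5.25 CPM at 0hpa and 27.0, 31.8 and 6.68 CPM at 6hpa in all-tissue. The groups overlapped in both tissues. The window on scaffold_5210 (3500 to 3899) behaved alike, with 22.4, 8.08 and 4.29 CPM at 72hpa in pax6 and 22.6 and 17.7 CPM in uninjured tails.

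Near hspa12b, the gene with the most lost windows, several neighbouring windows met the rule. Of the 12 windows of hspa12b and the adjoining lyrm2 in this stretch of Chr01, 4 were lost, spread over 38119 bp. The window at 9532059-9532458, 13033 bp from the hspa12b TSS, had 4.28, 5.103 and 3.51 CPM at 72hpa in pax6, against 6.27 and 11.5 CPM in uninjured tails. All-tissue values were 4.68, 2.42, 3.51 and 4.20 CPM at 72hpa, against 8.84, 8.64, 6.998 and 6.79 CPM. The groups did not overlap in either tissue. In pax6 the window was at 4.35 ± 1.08 CPM at 0hpa (SD, n = 2), near its 72hpa level, while in all-tissue it was at 8.33 ± 0.64 CPM at 0hpa (n = 2) and 5.45 ± 0.21 CPM at 24hpa (n = 3). The log2 fold change of 24hpa against 0hpa was 0.27 in pax6 and -0.63 in all-tissue (adjusted p = 0.519), so neither passed. The window at 9500516-9500915, on the other side and 18109 bp from the TSS, was stronger, with 16.2, 17.0, 9.12 and 13.1 CPM at 72hpa in all-tissue, against 18.02, 29.0, 23.8 and 24.2 CPM, and in pax6 with 12.5, 15.9 and 6.63 CPM, against 15.2 and 17.98 CPM. In pax6 its 72hpa and uninjured groups overlapped, and pax6 72hpa replicate 3 had the lowest value. The window at 9530264-9530663 had 9.07, 7.09 and 2.92 CPM at 72hpa in pax6, against 10.7 and 12.5 CPM in uninjured tails. None of the 3 windows near hspa12b was lost also without 3 libraries. Only that at 9532059-9532458 was among the 19 that no single library decided. The 8 windows of this stretch that were not lost had differences of -0.63 to 0.36 in pax6 and -0.47 to 0.24 in all-tissue. Near slc25a10, 2 of 8 windows were lost, and the one with the higher level had the profile of 3 high libraries.

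Along the chromosomes the lost windows gathered in a few places, which were chosen after the map was seen. The stretch of Chr01 from 5 to 15 Mb held 19 of them among 1224 windows (1.55%), against 0.244% on the rest of the chromosomes. It includes those near tex261, hspa12b, cyp26b1, fgfr3 and Xetrov90000239m.g. The windows of the whole stretch had a median difference of -0.04 in pax6 and -0.02 in all-tissue. At the times the rule did not use, the medians of its 19 lost windows against all windows were 0.00 and 0.04 at 0hpa, -0.04, 0.09 and -0.32 at 6hpa and -0.17, -0.06 and 0.00 at 24hpa in pax6. In all-tissue they were 0.10 and 0.03 at 0hpa, 0.00, 0.16 and -0.08 at 6hpa and 0.00, 0.24 and 0.15 at 24hpa. The windows of the whole stretch had medians 0.23 to 0.34 above that of all windows at these times. In every such library the lost windows of the stretch lay below this level. Of the 19, 2 were lost also without 3 libraries. Of the 256 stretches of 5 Mb with at least 200 windows, 124 held none of the lost windows and 5 held 6 or more, among them Chr04 from 110 to 115 Mb (6 of 300 windows, 2%) and Chr09 from 60 to 65 Mb (6 of 345, 1.74%). Another lost window lay within 100000 bp of 59 of them.

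Genes of known regulators of regeneration and of tail cell types were looked up next. Over 18 lists with 379 genes, 9 of 2421 windows were lost (0.372%), beside 0.265% of all windows. There was 1 each in the lists of neuron, notochord and matrix, cell cycle, AP-1, Wnt, FGF, hedgehog and retinoic acid, circadian clock, and heat shock genes. There was 0 in the lists of neural progenitor, skeletal muscle, epidermis, blood and myeloid, posterior Hox, BMP and TGF-beta, and Notch genes, of developmental timing genes, and of genes followed in the study. With counts this small nothing is particular to a list.

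Of these 9, the window near wnt5a, a ligand of the non-canonical Wnt pathway, had the highest level, 13.75 CPM on average (scaffold_88:70441-70840, 65145 bp). Its loss was not the largest, with a mean difference of -0.64, against -0.83 near cdk2. In pax6 it had 13.5 and 21.98 CPM in uninjured tails, 9.45 and 13.9 at 0hpa, 9.56, 14.8 and 10.4 at 6hpa, 12.8, 13.0 and 12.6 at 24hpa, and 9.25, 14.2 and 8.77 at 72hpa. In all-tissue it had 20.3, 20.9, 16.4 and 20.0 CPM in uninjured tails, 14.3 and 16.9 at 0hpa, 13.2, 13.1 and 14.0 at 6hpa, 10.7, 14.0 and 9.85 at 24hpa, and 13.0, 10.4, 14.7 and 13.0 at 72hpa. In all-tissue the 72hpa libraries were below the uninjured ones and the window was near its 72hpa level by 6hpa, while in pax6 the groups overlapped. The log2 fold change of 24hpa against 0hpa was 0.03 in pax6 and -0.48 in all-tissue, and neither passed.

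The window near tef, a clock-controlled transcription factor, lay 12851 bp from the TSS (Chr04:111482854-111483253). It had 1.37, 2.69 and 1.95 CPM at 72hpa in pax6, against 4.21 and 3.25 CPM in uninjured tails, and 2.14, 2.77, 3.79 and 2.10 CPM at 72hpa in all-tissue, against 4.59, 3.97, 4.80 and 4.66 CPM. The groups did not overlap, and it was among the 19 windows that no single library decided. At 24hpa it had 1.21, 1.94 and 2.07 CPM in pax6 and 2.27, 3.66 and 3.19 CPM in all-tissue, already low in pax6. The window near maff, a small Maf protein that pairs with AP-1 factors, lay on the same stretch of Chr04, 8821 bp from its TSS, with differences of -0.93 in pax6 and -0.51 in all-tissue.

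The window near gap43, a protein of growing axons, lay 2130 bp from the TSS (Chr02:1049278-1049677). In pax6 it had 4.41 and 4.995 CPM in uninjured tails, 4.56 and 3.46 at 0hpa, 2.68, 2.34 and 2.28 at 6hpa, 1.81, 1.94 and 2.23 at 24hpa, and 1.03, 2.27 and 3.51 at 72hpa. The all-tissue libraries had 4.59, 2.42, 5.199 and 2.53 CPM in uninjured tails and 1.34, 1.90, 2.39 and 3.67 CPM at 72hpa, with overlap. At 0hpa they had 2.195 and 2.19 CPM, at 6hpa 2.35, 1.76 and 2.38 CPM, and at 24hpa 1.14, 3.49 and 3.04 CPM. The log2 fold change of 24hpa against 0hpa was -0.93 in pax6 and 0.25 in all-tissue, and neither passed.

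Of the other listed windows, that near fgfr3, a receptor of FGF ligands, was 125137 bp from the TSS, with -0.72 in pax6 and -0.66 in all-tissue. In pax6 it had 7.25 and 15.98 CPM in uninjured tails, against 5.65, 6.95 and 6.63 CPM at 72hpa. Most of the pax6 difference came from pax6 uninjured replicate 2, and the groups overlapped in all-tissue. That near cyp26b1, which degrades retinoic acid, was 199522 bp away, with -0.52 and -0.51. Those near sox5, a transcription factor of cartilage and notochord, and hsf1, the regulator of the heat shock response, had -0.51 and -0.54, and -0.55 and -0.56, in pax6 and all-tissue.

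Only 10 windows lay within 500 bp of a TSS. The window near cdk2, a kinase that drives entry into DNA replication, was 252 bp from its TSS (Chr02:134639485-134639884). It had 3.42, 4.11 and 0.195 CPM at 72hpa in pax6, against 2.55 and 6.74 CPM in uninjured tails, and 3.74, 2.60, 2.95 and 1.57 CPM at 72hpa in all-tissue, against 3.603, 4.32, 5.199 and 4.53 CPM. The pax6 loss rested on pax6 72hpa replicate 3, and the groups overlapped in both tissues. At 24hpa it had 4.97, 3.31 and 4.29 CPM in pax6 and 4.999, 5.98 and 3.77 CPM in all-tissue, within the uninjured range or above it. The window that held the TSS of LOC100486372-like (Chr04:112981354-112981753) had 0.514, 2.13 and 1.36 CPM at 72hpa in pax6, against 3.53 and 5.25 CPM in uninjured tails, and in all-tissue 1.60, 1.04, 1.54 and 2.62 CPM, against 4.26, 2.94, 1.80 and 2.80 CPM, where the groups overlapped. Near ddx10, an RNA helicase of ribosome assembly, the window at 492 bp had differences of -0.78 in pax6 and -0.53 in all-tissue. Those near LOC101734025 (204 bp), LOC101734255 (31 bp), Xetrov90006125m.g (328 bp), Xetrov90018382m.g (482 bp) and LOC100496507 (6 bp), which the RefSeq table names ggt6, a gamma-glutamyl transferase, had differences of -0.71 to -0.63 in pax6 and -0.87 to -0.52 in all-tissue.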

How the data were processed

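Adapters were trimmed by the authors with Trim Galore, reads aligned to xtropicalis9.0 with Bowtie2, duplicates removed with SAMtools and peaks called with MACS2 on all alignments merged. Fragments per peak were counted with featureCounts, and the deposited values are raw counts without normalization. The deposited summit scores are -log10 q-values of the authors' MACS2 run. The nearest gene and its TSS distance came from the authors' comparison tables, whose log2 fold changes and p-values hold their own results and were not used. Distances are from the window edge.

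CPM used library totals for the rule. Tests used R 4.3.3 with edgeR 4.0.16 (TMM, robust dispersion, quasi-likelihood F test, a filter of 1 CPM reached by 2 or more samples, Benjamini-Hochberg adjustment over all windows). The second libraries were summed with all-tissue replicate 1 of their group, giving 27 samples. DESeq2 1.42.0, the likelihood ratio test, other scalings and filters, a replicate block and left-out libraries were alternatives, and those that left out 3 libraries together were chosen after seeing the data. The procedure was tested on simulated data in which every window had the same dispersion. For 24hpa against 0hpa in all-tissue it called 40 of 100 2-fold and 92 of 100 4-fold changes. In the mean of both tissues it called 82 and 100. The lost windows were weaker and less even than most, so 0 calls do not show that none changed.

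The lost windows and the gene lists were chosen with earlier results of these data known. Unless stated otherwise, named windows are the 12 with the most negative mean difference near a named gene at 2 CPM or more, those of the 8 genes with most lost windows, the 8 most negative within 500 bp of a TSS, called windows (up to 3 per direction), up to 3 per gene list, and the 2 on each side of the threshold. Some windows that met these rules are not reported here. Of 48 LOC identifiers, 26 had an entry in the RefSeq gene table (UCB_Xtro_10.0, names only) and 6 another symbol. Motifs, GC content and sequences were not analysed here. Figures used Python 3.11.15, pandas 2.3.3, numpy 2.4.6 and matplotlib 3.10.9.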

Additional observations from a re-analysis of the deposited data

Results flagged for a closer look

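Of 60 groups of 4 libraries looked at, 2 had a library far from the other 3. The cut-off flags about 1 in 20 groups by chance when values are not selected. Only the uninjured and 72hpa all-tissue groups held 4 libraries, and these chose the windows. That rate therefore does not apply here, and nothing is read from the number of flags. The median log2(CPM + 0.5) of the 329 windows was 2.68 in all-tissue uninjured replicate 1, above the 2.29 to 2.35 of the other uninjured all-tissue libraries. The window near LOC101732136 had 7.89 CPM in all-tissue 72hpa replicate 1, against 5.37 to 5.75 CPM in the other all-tissue 72hpa libraries.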

How the results depend on the processing

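The number of lost windows depended on the settings. It was 170 with a pseudocount of 1, 597 with 0.1, 1066 at a threshold of -0.4, 117 at -0.6 and 187 without 3 libraries, and leaving out 1 library gave 208 to 774. A median over libraries gave 327, of which 162 were shared.

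At an unadjusted p under 0.05 the counts were 54, 12 and 32 for 24hpa against 0hpa, 17, 18 and 19 for 24hpa against 6hpa and 26, 12 and 17 for 6hpa against 0hpa in all-tissue, pax6 and their mean, 39 for pax6 against all-tissue and 344 for 72hpa against uninjured. The 344 is the sum of separate tests in all-tissue and in pax6, so a window could be counted in each tissue. For 24hpa against 0hpa in all-tissue the likelihood ratio test and the model without the third pax6 72hpa library gave 1 each, and leaving out 1 library 0 to 9. Leaving out 1 library gave 0 to 2 for 6hpa against 0hpa in all-tissue and 0 in the 7 other time comparisons. For pax6 against all-tissue the main count of 2 was 1 with DESeq2, which gave no adjusted p for the slc16a1 window, 4 without the third pax6 72hpa library and 1 to 3 with 1 library left out, not always the same windows. For 72hpa against uninjured the main count of 2 was 1 with library totals, 10 with the likelihood ratio test, 8 without the third pax6 72hpa library, 7 without 3 libraries of the middle timepoints and 1 to 7 with 1 library left out. The rule used the comparison of 72hpa with uninjured tails, and its counts here add the calls of both tissues. Except where given above, the shares of all windows under these settings are not given here, so nothing is read from these counts. Why the counts moved with the settings was not tested.

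A replicate block gave 6 for 72hpa against uninjured, 2 for pax6 against all-tissue and 0 in the 9 time comparisons. These counts too stand without the shares of all windows. Deviations of samples with the same number had a median correlation of 0.0145 over 108 pairs, 3 of them over 0.1. Pairs with different numbers had a median of -0.0072 over 219 pairs, 2 of them over 0.1. Whether some samples of a number share an origin was not tested. At a median of 23.3 fragments per library in the lost windows, counting noise limits what a single window can show.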
